A study of Mus musculus with 82 samples.

Results

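Cell cycle and DNA replication genes are described here in pristane granulomata of mice, as 51 listed genes of S phase and mitosis. Of the 12394 genes with a probe set of a single gene symbol on the array, 50 were members of this list, 17 of S phase and 33 of mitosis. Ccnb1, the major mitotic B-type cyclin, had no such probe set and is named only. Where several probe sets measured a gene, the brightest one on average across the 82 arrays stood for it. A filter on low values kept 48 members (16 of S phase and 32 mitotic), which stood above the array median in 26 to 53 of 53 specimen averages. Tyms, the thymidylate synthase that makes dTMP, and Cenph, a kinetochore subunit, were above the array median in 0 averages and were not tested. As deposited, where the tissue types are not on a common scale and no comparison is made, Tyms had medians of 3.07 in captured cells of study 2 and 4.17 in whole granuloma, and Cenph of 4.79 and 5.77 in these samples. In study 1 the medians were 3.78 in captured cells and 3.73 in whole granuloma for Tyms, and 4.48 and 4.61 for Cenph. Cenpe was above the array median in 0 of 15 whole granuloma averages of study 2 and E2f1 in 0 of 8 of study 1, so these 2 members passed the filter there only through captured cells, had to differ, and their tissue difference in that study is given with no test.

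All mice were of the BALB/c.iMycEμ strain, in which a Myc gene stands under control of the immunoglobulin heavy chain locus, were aged at least 8 weeks and had received 0.5 ml of pristane, an oil that provokes inflammatory granulomata in the peritoneum. Every group therefore carries the Myc insertion and the oil, and mice without either are not analysed here. The captured cells, labelled as nascent plasma cell tumour cells, stained with methyl green pyronin, a stain of plasma cells, and were cut from sections by laser. Undissected sections, which hold plasma cells beside the other cells of the granuloma, gave the whole granuloma samples. Study 2 had 3 specimens of each tissue type on days 7, 17, 33, 49 and 105 after pristane (30 arrays of captured cells and 15 of whole granuloma). Study 1, a separate cohort, had captured cells of 4, 4, 3, 3 and 1 specimens on days 7, 17, 33, 46 and 104 (25 arrays), and whole granuloma of 2, 2, 3 and 1 specimens on days 7, 17, 33 and 104 (12 arrays). Captured cells and whole granuloma are matched by the specimen number in the titles, whose added letter differs in 4 of the 15 pairs of study 2. The labels do not say that specimen numbers are separate mice, so p-values measure the spread between these specimens, and their number limits the precision of each value.

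Cells that divide copy their genome in S phase and part the copies in mitosis, and each phase has its own set of transcripts. Replication genes, such as those of the MCM helicase and of nucleotide synthesis, are classic targets of E2F factors, while late genes of the spindle, the kinetochore and cytokinesis are held in check by the DREAM complex in resting cells and driven by B-Myb and FoxM1 in cycling ones. A mature plasma cell has normally left the cell cycle, whereas plasmablasts and plasma cell tumours divide, so these transcripts are often read as a sign of proliferation in this lineage.

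Promoters of these genes carry the elements through which that timing is set, and the stretches below belong to a few of the 22 members that were higher in captured cells of both studies. Each is the 250 bases before the transcript start, in the direction of transcription, from the RefSeq promoter table of build GRCm38.p6. Capitals mark TTTGAA (the cell cycle genes homology region, bound by DREAM) and CCAAT (the NF-Y box) on either strand, so that TTCAAA and ATTGG are their reverse forms. Ttk (chr9:83834439-83834688, plus strand), Kif22 (chr7:127042421-127042670, minus strand) and Top2a (chr11:99024190-99024439, minus strand) are mitotic, and Mcm2 (chr6:88898781-88899030, minus strand) is an S phase member.
Ttk: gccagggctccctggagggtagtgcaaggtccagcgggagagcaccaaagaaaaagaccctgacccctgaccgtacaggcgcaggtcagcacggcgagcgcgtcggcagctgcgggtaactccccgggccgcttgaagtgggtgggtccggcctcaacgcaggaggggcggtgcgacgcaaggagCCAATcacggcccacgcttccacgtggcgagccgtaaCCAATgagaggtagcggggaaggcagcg
Kif22: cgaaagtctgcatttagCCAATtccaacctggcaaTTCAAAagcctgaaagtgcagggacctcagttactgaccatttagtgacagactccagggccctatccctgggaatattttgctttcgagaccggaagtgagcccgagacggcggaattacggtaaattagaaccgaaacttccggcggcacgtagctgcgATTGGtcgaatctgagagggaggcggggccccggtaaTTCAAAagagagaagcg
Top2a: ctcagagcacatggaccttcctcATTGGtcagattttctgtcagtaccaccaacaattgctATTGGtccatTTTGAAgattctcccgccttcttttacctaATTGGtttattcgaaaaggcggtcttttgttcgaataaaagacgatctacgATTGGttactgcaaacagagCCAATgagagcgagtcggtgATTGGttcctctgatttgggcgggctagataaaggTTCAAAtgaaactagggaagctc
Mcm2: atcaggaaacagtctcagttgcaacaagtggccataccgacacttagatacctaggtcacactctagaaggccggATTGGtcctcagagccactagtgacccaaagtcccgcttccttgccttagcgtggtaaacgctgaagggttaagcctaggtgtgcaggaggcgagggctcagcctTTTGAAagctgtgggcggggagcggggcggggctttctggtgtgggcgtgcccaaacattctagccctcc

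Top2a showed 6 CCAAT boxes and 2 copies of TTTGAA in this stretch, Kif22 had 2 of each, Mcm2 had 1 of each, and Ttk had 2 CCAAT boxes with its TTTGAA in the 50 bases after the start. The table held windows of 250 bases before to 50 after the start for 42 members (15 of S phase and 27 mitotic, 47 windows in all). The members shown all have TTTGAA in their window. Others of the 22, Rfc4, Ccne1, E2f1, Nusap1, Birc5 and Cenpk among them, have windows without it. TTTGAA stood in 67.7% of the 31 mitotic windows and 12.5% of the 16 S phase windows, against 17.9% of all 32851 windows. CCAAT stood in 90.3% of mitotic and 62.5% of S phase windows, against 37.4% of all. An E2F site, searched as TTCCCGC or TTGGCGC on both strands with no overlap to the other motifs required or barred, stood in 22.6% of mitotic and 50% of S phase windows, against 6.81% of all. Both TTTGAA and CCAAT were present in 67.7% of mitotic and 12.5% of S phase windows, against 6.95% of all. These are matches of letters, not measured binding sites.

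The arrays were uneven in ways that touch the members. Array medians were 5.31 to 5.64 in captured cells of study 2, against 7.11 to 7.34 in whole granuloma. They were 4.97 to 5.11 in captured cells of study 1, against 5.73 to 5.83 in whole granuloma. Tissue types are therefore compared on quantile-normalized log2 values, and days within a tissue type on log2 values as deposited. Signal at the 3′ end of control transcripts exceeded that at the 5′ end, a mark of shortened RNA or cDNA, by 4.14 ± 0.90 log2 units in captured cells of study 2 (SD, 30 arrays), against 1.61 ± 0.13 in whole granuloma (15 arrays). In study 1 this end difference was 4.49 ± 0.68 in captured cells (25 arrays), against 3.19 ± 0.36 in whole granuloma (12 arrays). One array stood apart, the second array of specimen 2 of day 49 in captured cells of study 2, whose mean correlation with the other captured arrays of its study was 0.246, against 0.850 for the next lowest. Its mean over the members deviated by −2.59 for S phase and −1.81 for mitosis, and the counts that rest on it most are also given without it. All groups share an estimate of the spread, so leaving it out also reaches p-values of study 1 and of whole granuloma. In study 1 specimen 14 of day 33 was low in both tissue types (−0.73 and −0.93 for S phase and mitotic members in captured cells, −0.90 and −0.91 in whole granuloma).

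The labelled cell type could be checked against its markers on the quantile-normalized scale. Jchain, the joining chain of secreted IgA and IgM, lay between 10.46 and 12.99 (median 12.79) in captured cells of study 2, against 12.26 to 13.02 (median 12.60) in whole granuloma. Slamf7, a surface receptor of plasma cells, had medians of 7.77 in captured cells and 6.15 in whole granuloma, and 6 of 9 plasma cell markers tested were higher in captured cells while 0 were lower (34.4% and 35.4% of all genes). Of 8 macrophage markers 6 were lower and 1 higher in captured cells, with a list median of 9.12 (8.17 to 10.43) against 10.45 (8.71 to 11.04) in whole granuloma, so that captured cells kept macrophage transcripts. Smooth muscle markers were lower in 4 of 4 cases, with a list median of 5.99 in captured cells against 9.53 in whole granuloma. Fibroblast markers had list medians of 10.85 against 11.45 in study 2 and 11.17 against 11.94 in study 1. Those of B cells were 6.685 against 6.87 in study 2 and 6.58 against 6.61 in study 1. T cell and neutrophil list medians also differed little. Endothelial, adipocyte and mesothelial list medians were lower in captured cells of both studies. In study 1 the plasma cell markers were higher in 4 of 9 cases, the macrophage markers lower in 8 of 8 and the smooth muscle markers lower in 4 of 4 (31.5% of all genes higher and 29% lower). Without the array that stood apart, 7 plasma cell markers were higher and 1 lower in study 2, and 2 macrophage markers were higher and 6 lower. Captured specimen 1 of day 7 of study 2 held pancreatic transcripts (Cpb1, a digestive carboxypeptidase, at 11.01, against a median of 3.82 in captured cells of that study), and a whole granuloma specimen of study 1 reached 12.64. Both arrays of captured specimen 5 of day 7 of study 1 carry that number, yet the female transcript Xist stood at 11.65 and 4.90 and the Y-linked Eif2s3y at 2.83 and 7.70, so they may not share a mouse, and treating them as 2 specimens moved no tissue call. The part of these other cells in the results below was not tested.

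Whether cell cycle transcripts are more abundant in the captured plasma cells than in the surrounding granuloma was asked in each study. In study 2, 30 of 48 members were higher and 5 lower in captured cells, with a median difference of 0.64 on the log2 scale, whereas 34.4% of all 8593 genes tested were higher and 35.4% lower, with a median of −0.02. Mitotic members made up most of the increase (24 of 32 higher, 2 lower, median 0.745), and S phase members were mixed (6 of 16 higher, 3 lower, median 0.14). In study 1, 32 members were higher and 0 lower (median 0.74), against 31.5% of all genes higher and 29% lower (median 0.06). With the specimen number as a fixed block, in specimens that had both tissue types, the 32 became 23 (20.2% of all genes higher, 20.8% lower), and 9 calls were lost, those of Rrm1, Pcna, Ccna2, Plk1, Tpx2, Hmmr, Racgap1, Ect2 and Top2a. In the study 1 fit that called 32, S phase members shared the increase (11 of 16 higher, median 0.87) with mitotic ones (21 of 32 higher, median 0.73). Study 2 gives 15 specimens of each type, and study 1 gives 12 of captured cells and 8 of whole granuloma from the days that have both. Calls are limma's at a Benjamini-Hochberg adjusted p of 0.05 over all genes. The count of 0 lower members of study 1 was also 0 with median centring, but 6 as deposited. It stayed 0 without the array that stood apart, which belongs to study 2 and touches study 1 only through the shared fit. Without Cenpe 29 were higher in study 2, and without E2f1 31 in study 1. In bulk samples, more dividing cells and more transcript per cell cannot be told apart.

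A total of 22 members were higher in captured cells of both studies, 5 of S phase (Mcm2, Mcm4, Rfc4, Ccne1 and E2f1) and 17 mitotic, against 18.5% of all genes, and 0 were lower in both, against 18%. E2f1 is counted here and below, although its study 1 difference is given with no test. Groups that did not overlap were rare in study 2, where Kif22 and Cenpk were the members with every captured specimen above every granuloma specimen (2.37% of all genes), and 0 had every one below (2.58%). Study 1 had 5 such members, Mcm4, E2f1, Foxm1, Cdc20 and Kif22 (12.9% of all genes), and the ranges of the other members overlapped. Scale sets the direction here: as deposited, the median gene differed by −1.68 in study 2 and −0.60 in study 1, and 3 members were higher and 40 lower in study 2, 9 higher and 6 lower in study 1. Relative to that median gene, 41 of 48 members of study 2 and 46 of 48 of study 1 were above it in the deposited values, and 38 and 43 after quantile normalization. Median centring gave 9 of 16 S phase members higher and 1 lower in study 2, and 28 of 32 mitotic members higher and 2 lower. Of all 8593 genes, 3926 were then higher and 2326 lower. With the end difference of the control transcripts as a covariate, which itself differs by tissue type, 13 members were higher and 9 lower in study 2 (median −0.09), against 13.8% of all genes higher and 26.4% lower (median −0.29). S phase members were then mostly lower, 3 higher and 6 lower (median −0.75, 4 of 16 positive). Mitotic members were 10 higher and 3 lower (median 0.18). In study 1 the covariate gave 16 higher and 0 lower (median 0.41), against 20.2% and 28.1% of all genes (median −0.11). Of these 16, 3 were of S phase and 13 mitotic. Rfc4, E2f1, Foxm1, Ttk, Kif22, Kif23, Tpx2, Nusap1 and Cenpk, 9 of the 22, also passed with this covariate in both studies. Without the array that stood apart, 33 were higher and 4 lower in study 2, against 38.6% and 36% of all genes.

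**Figure D1:**
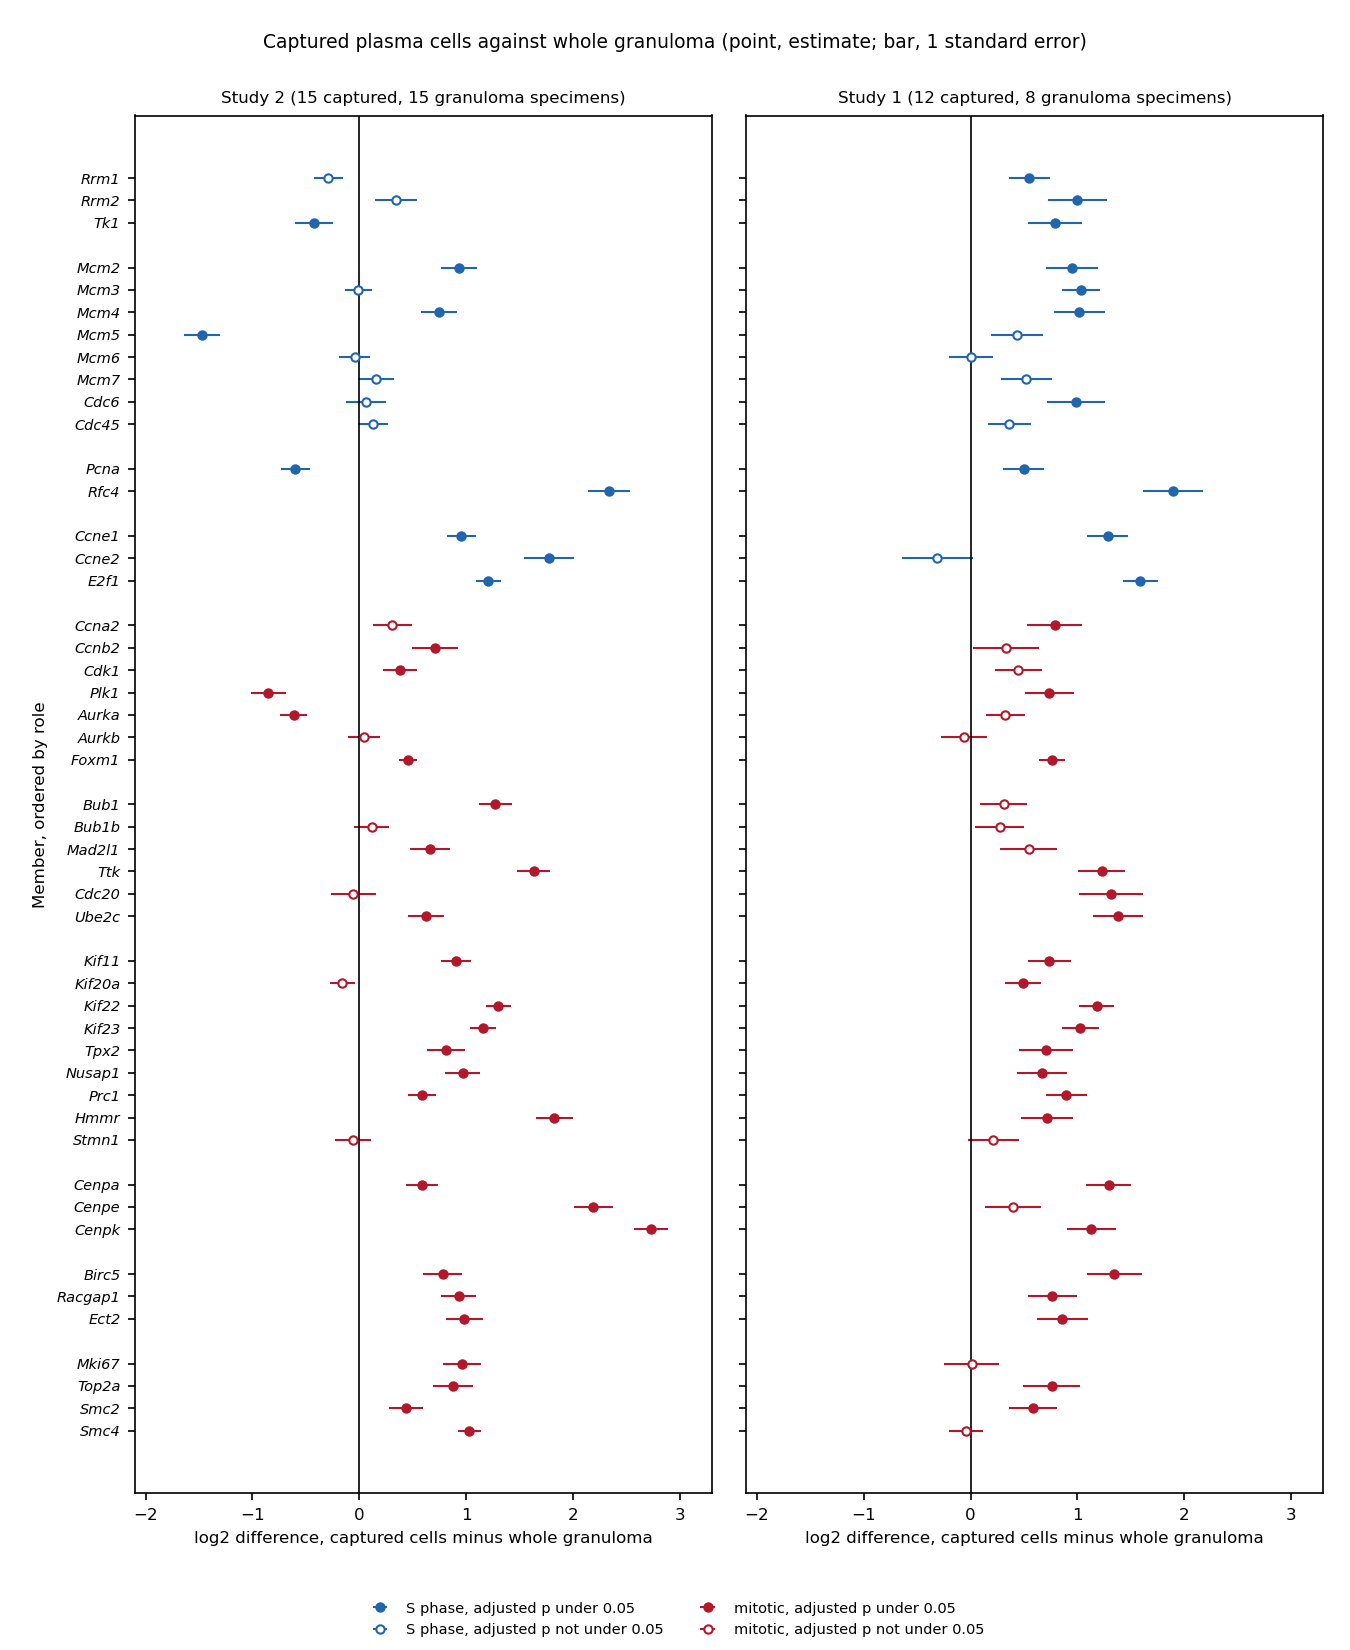
Log2 difference of captured cells minus whole granuloma for each of the 48 tested members, ordered by role, in study 2 (left) and study 1 (right). Points are limma estimates on quantile-normalized values with bars of 1 standard error, blue for S phase and red for mitotic members, filled where the adjusted p was under 0.05. Cenpe in study 2 and E2f1 in study 1 are drawn alike but are given with no test. Study 2 runs from −1.47 (Mcm5) to 2.73 (Cenpk), and study 1 from −0.31 (Ccne2) to 1.90 (Rfc4).

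Nucleotide synthesis feeds replication with deoxynucleotides. In study 1, 3 of 3 members tested were higher in captured cells, while in study 2 the counts were 0 higher and 1 lower. Counts by role, here and below, stand against 34.4% of all genes higher and 35.4% lower in study 2. In study 1 these shares were 31.5% and 29%. Rrm2, the regulated subunit of ribonucleotide reductase, lay between 7.36 and 11.62 (median 11.04) in captured cells of study 2, against 9.35 to 11.72 (median 10.49) in whole granuloma. Its difference was 0.34 (SE 0.19, adjusted p = 0.109, higher in 13 of 15 specimens), and 0.58 (adjusted p = 1.83e-05) without the array that stood apart. In study 2 its other probe sets gave −1.12 (adjusted p = 7.63e-08) and −0.29 (adjusted p = 0.139). Rrm2 of study 1 lay between 10.24 and 11.69 (median 11.49) in captured cells, against 9.56 to 10.72 (median 10.47) in whole granuloma. The study 1 ranges of Rrm2 overlapped and its difference there was 1.00 (SE 0.27, adjusted p = 0.00186, higher in 4 of 5 specimens). Its partner subunit Rrm1 differed by −0.29 (adjusted p = 0.0548) in study 2 and 0.55 (adjusted p = 0.0127) in study 1, where the mean of its probe sets turned to −0.28. Its other probe set was lower in study 2 at −0.69 (adjusted p = 3.8e-06). In study 1 it was lower too, at −1.11 (adjusted p = 7.64e-07), opposite to the probe set used. The salvage enzyme Tk1, thymidine kinase, differed by −0.42 (adjusted p = 0.033) in study 2 (−0.34, adjusted p = 0.0619 without that array) and 0.79 (adjusted p = 0.00681) in study 1.

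Origin licensing loads the MCM helicase onto DNA before S phase, and its members split. In study 2, 2 of 8 were higher and 1 lower, and in study 1, 4 of 8 were higher and 0 lower. Mcm2, a subunit of the helicase ring, lay between 7.85 and 11.24 (median 10.73) in captured cells of study 2, against 9.04 to 11.29 (median 9.57) in whole granuloma. Mcm2 in study 1 lay between 9.46 and 10.56 (median 10.36) in captured cells, against 8.76 to 9.87 (median 9.44) in whole granuloma. Both pairs of ranges overlapped, and captured cells were higher by 0.93 (SE 0.17, adjusted p = 7.8e-06, higher in 13 of 15 specimens) in study 2 and 0.95 (SE 0.24, adjusted p = 0.000904, higher in 5 of 5 specimens) in study 1. Mcm2 turned to −0.49 in study 2 with the end difference as a covariate, with no call. Mcm4, another subunit of the ring, lay between 6.76 and 10.17 (median 9.67) in captured cells of study 2, against 7.94 to 9.73 (median 8.72) in whole granuloma. These overlapped, with a difference of 0.74 (higher in 14 of 15 specimens), and with that covariate Mcm4 turned to −0.38, with no call. Mcm4 in study 1 lay between 9.50 and 10.94 (median 10.10) in captured cells, against 8.65 to 9.46 (median 9.06) in whole granuloma. Every captured specimen was above every granuloma specimen, with a difference of 1.02 (higher in 5 of 5 specimens). Mcm5, also a subunit of it, went the other way in study 2 and lay between 5.31 and 7.50 (median 6.82) in captured cells of study 2, against 6.83 to 9.12 (median 8.17) in whole granuloma. Every captured specimen was below the granuloma median, and Mcm5 was lower by 2.78-fold there, with a difference of −1.47 (SE 0.17, adjusted p = 6.48e-10, lower in 14 of 15 specimens). Mcm5 in study 1 lay between 5.33 and 7.64 (median 7.15) in captured cells, against 5.76 to 7.32 (median 6.76) in whole granuloma. Its difference was 0.44 (SE 0.24, adjusted p = 0.114, higher in 4 of 5 specimens), which did not pass. Mcm3 (1.03) and the loading factor Cdc6 (0.99) were higher in study 1, with differences of −0.01 (adjusted p = 0.956) and 0.06 (adjusted p = 0.781) in study 2. Mcm6, Mcm7 and Cdc45, the last a partner of the active helicase, did not pass in either study (−0.04, 0.16 and 0.13 in study 2, 0.01, 0.52 and 0.36 in study 1). The other probe sets of Mcm2 and Mcm4 did not pass in either study (−0.31 and −0.17 in study 2, 0.20 and 0.36 in study 1). Probe sets of Mcm3, Mcm6 and Mcm7 disagreed. Other probe sets of Mcm3 gave −0.92 (adjusted p = 2.1e-05) and 1.65 (adjusted p = 1.56e-17) in study 2. Those of Mcm7 gave 1.35 (adjusted p = 3.8e-10), −1.07 (adjusted p = 5.3e-11) and −1.80 (adjusted p = 6.28e-11) in study 2, and 1.17 (adjusted p = 1.22e-05) and −1.06 (adjusted p = 0.00073) in study 1. Mcm6 had another at 0.97 (adjusted p = 0.0013) in study 1. Mcm7 gave 0.35 (adjusted p = 0.001) in study 2 and 0.52 (adjusted p = 0.000706) in study 1 without the array that stood apart. That array is of study 2, and the study 1 difference was 0.52 with it too.

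The sliding clamp and its loader parted in study 2. Rfc4, a subunit of the clamp loader, lay between 7.91 and 10.46 (median 9.94) in captured cells of study 2, against 6.19 to 8.84 (median 7.52) in whole granuloma. Rfc4 in study 1 lay between 8.45 and 10.49 (median 9.76) in captured cells, against 6.71 to 8.73 (median 8.04) in whole granuloma. Its ranges overlapped in both, and it was the S phase member with the largest difference in each study, 2.34 (SE 0.20, adjusted p = 2.15e-13, higher in 15 of 15 specimens) in study 2 and 1.90 (SE 0.28, adjusted p = 3.37e-07, higher in 5 of 5 specimens) in study 1. The other probe set of Rfc4 gave 1.50 (adjusted p = 9.39e-08) in study 2, and 0.09 (adjusted p = 0.829) in study 1, which did not pass. Pcna, the clamp that holds the polymerase on DNA, lay between 8.48 and 11.45 (median 10.75) in captured cells of study 2, against 10.85 to 11.76 (median 11.18) in whole granuloma. Pcna was lower in captured cells, with a difference of −0.60 (SE 0.14, adjusted p = 0.000166, lower in 13 of 15 specimens), while centring on array medians gave 0.12 with no call. Pcna in study 1 lay between 10.52 and 11.46 (median 11.20) in captured cells, against 9.89 to 11.17 (median 10.51) in whole granuloma. Captured cells were higher, by 0.50 (SE 0.19, adjusted p = 0.0243, higher in 5 of 5 specimens). Regulators of S phase entry were higher in 3 of 3 cases in study 2 and 2 of 3 in study 1. The study 1 count includes E2f1, whose difference there is given with no test. E2f1, a transcription factor that activates replication genes, lay between 6.84 and 8.74 (median 7.07) in captured cells of study 2, against 5.33 to 7.27 (median 5.89) in whole granuloma. E2f1 in study 1 lay between 6.73 and 7.27 (median 6.86) in captured cells, against 5.20 to 5.59 (median 5.31) in whole granuloma, with every captured specimen above every granuloma specimen. The difference of E2f1 was 1.21 (SE 0.12, adjusted p = 8.78e-12, higher in 15 of 15 specimens) in study 2, and 1.59 (higher in 5 of 5 specimens) in study 1. Its other probe set gave 0.30 (adjusted p = 0.0841) in study 2, which did not pass, and 0.54 in study 1. Ccne1, the cyclin that drives S phase entry, lay between 7.50 and 8.93 (median 8.03) in captured cells of study 2, against 6.32 to 8.19 (median 7.11) in whole granuloma. Ccne1 in study 1 lay between 6.60 and 9.14 (median 8.38) in captured cells, against 5.72 to 7.61 (median 6.81) in whole granuloma. Its ranges overlapped and its differences were 0.96 (higher in 15 of 15 specimens) in study 2 and 1.28 (higher in 5 of 5 specimens) in study 1. Ccne2, the second E-type cyclin, lay between 5.75 and 8.90 (median 8.24) in captured cells of study 2, against 4.44 to 7.52 (median 6.29) in whole granuloma. Its difference was 1.77 (SE 0.23, adjusted p = 1.52e-08, higher in 14 of 15 specimens). Ccne2 in study 1 lay between 4.24 and 8.18 (median 5.76) in captured cells, against 5.58 to 6.82 (median 6.54) in whole granuloma. Its difference was −0.31 (SE 0.33, adjusted p = 0.422, lower in 3 of 5 specimens).

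Mitotic cyclins and kinases, which commit a cell to division, were the most divided mitotic group, with 3 of 7 higher and 2 lower in study 2 and 3 of 7 higher in study 1. Foxm1, the transcription factor of late cell cycle genes, lay between 6.04 and 6.96 (median 6.19) in captured cells of study 2, against 5.56 to 6.83 (median 5.73) in whole granuloma. The ranges overlapped, with a difference of 0.45 (higher in 14 of 15 specimens). Foxm1 in study 1 lay between 6.10 and 6.80 (median 6.43) in captured cells, against 5.46 to 5.80 (median 5.66) in whole granuloma. The groups did not overlap, with a difference of 0.76 (higher in 5 of 5 specimens). Another of its probe sets was lower and past the threshold in study 2. Cdk1, the kinase that starts mitosis, lay between 6.99 and 9.83 (median 9.46) in captured cells of study 2, against 8.12 to 9.86 (median 8.66) in whole granuloma. Its difference was 0.38 (SE 0.16, adjusted p = 0.0294, higher in 12 of 15 specimens) in study 2, and 0.45 (adjusted p = 0.0801) in study 1. With the end difference as a covariate it was −0.59 in study 2, and with a fixed block its call there was lost. Without the array that stood apart, which is of study 2, the study 1 difference stayed at 0.45. Its adjusted p was then 0.017, through the fit that all groups share. Plk1, a kinase of spindle assembly and mitotic exit, lay between 5.04 and 7.40 (median 6.93) in captured cells of study 2, against 6.21 to 8.67 (median 7.65) in whole granuloma. Its ranges overlapped, and captured cells were lower by 1.80-fold, a difference of −0.85 (SE 0.16, adjusted p = 1.68e-05, lower in 13 of 15 specimens). Plk1 in study 1 lay between 6.10 and 7.69 (median 7.18) in captured cells, against 5.79 to 6.85 (median 6.39) in whole granuloma. Here captured cells were higher, by 0.74 (SE 0.23, adjusted p = 0.00613, higher in 4 of 5 specimens). Aurka, the centrosomal Aurora kinase, was lower in study 2 at −0.62 (adjusted p = 5.73e-05) and differed by 0.32 (adjusted p = 0.121) in study 1. Aurkb, the Aurora kinase of the chromosomal passenger complex, differed by 0.05 (adjusted p = 0.783) in study 2 and −0.06 (adjusted p = 0.818) in study 1. Ccnb2, a B-type cyclin, was higher in study 2 (0.71) and Ccna2, the cyclin of S phase and early mitosis, in study 1 (0.79), with values of 0.33 and 0.31 in the other study that did not pass. With that covariate Ccnb2 turned to −0.46 in study 2, with no call. Ccna2 gave 0.46 (adjusted p = 0.00196) in study 2 without the array that stood apart.

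The spindle checkpoint delays anaphase until chromosomes are attached, and the anaphase-promoting complex then ends mitosis. Of these members 4 of 6 were higher in study 2 and 3 of 6 in study 1. Ttk, the checkpoint kinase also called Mps1, lay between 6.75 and 8.36 (median 7.63) in captured cells of study 2, against 4.44 to 7.52 (median 5.90) in whole granuloma. Ttk in study 1 lay between 6.70 and 8.51 (median 7.78) in captured cells, against 5.69 to 7.29 (median 6.54) in whole granuloma. Ranges overlapped in both, with captured cells higher by 1.63 (SE 0.15, adjusted p = 5.2e-12, higher in 15 of 15 specimens) in study 2 and 1.23 (SE 0.22, adjusted p = 9.08e-06, higher in 5 of 5 specimens) in study 1. Bub1, a checkpoint kinase of the kinetochore, lay between 7.19 and 9.49 (median 8.71) in captured cells of study 2, against 6.52 to 8.43 (median 7.20) in whole granuloma. Its difference was 1.27 (SE 0.16, adjusted p = 2.65e-09, higher in 15 of 15 specimens), although its other probe set was lower and past the threshold. Bub1 in study 1 lay between 5.84 and 8.56 (median 8.09) in captured cells, against 6.72 to 7.98 (median 7.38) in whole granuloma. Its difference was 0.31 (SE 0.22, adjusted p = 0.22, higher in 4 of 5 specimens). Ube2c, the ubiquitin-conjugating enzyme of the anaphase-promoting complex, lay between 7.72 and 9.18 (median 8.63) in captured cells of study 2, against 6.81 to 9.04 (median 7.90) in whole granuloma. The ranges overlapped, and its difference was 0.62 (higher in 13 of 15 specimens). Ube2c in study 1 lay between 6.64 and 8.86 (median 8.54) in captured cells, against 5.85 to 7.65 (median 6.98) in whole granuloma. The study 1 ranges of Ube2c overlapped too, with a difference of 1.38 (higher in 5 of 5 specimens). Cdc20, its activator, lay between 6.82 and 11.19 (median 10.72) in captured cells of study 2, against 9.72 to 11.30 (median 10.63) in whole granuloma. Its difference was −0.06 (lower in 7 of 15 specimens), which did not pass. Cdc20 in study 1 lay between 11.45 and 12.32 (median 12.12) in captured cells, against 10.14 to 11.13 (median 10.86) in whole granuloma. The groups of study 1 did not overlap, and the difference was 1.31 (SE 0.30, adjusted p = 0.000266, higher in 5 of 5 specimens). Mad2l1, which holds Cdc20 back, was higher in study 2 (0.66) and gave 0.54 (adjusted p = 0.0757) in study 1, and Bub1b passed in neither (0.12 and 0.27). Mad2l1 turned to −0.10 in study 2 with the end difference as a covariate, with no call. Without the array that stood apart, which is of study 2, the study 1 difference stayed at 0.54 (adjusted p = 0.00799).

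Kinesins and spindle proteins, which build the spindle and move chromosomes, were higher in 7 of 9 cases in study 2 and 8 of 9 in study 1. Kif22, the kinesin that pushes chromosome arms away from the poles, lay between 9.52 and 10.89 (median 10.19) in captured cells of study 2, against 7.82 to 9.34 (median 9.12) in whole granuloma. Kif22 in study 1 lay between 10.43 and 11.28 (median 10.86) in captured cells, against 8.83 to 10.00 (median 9.61) in whole granuloma. No captured specimen of either study fell into the granuloma range, and the differences were 1.30 (SE 0.12, adjusted p = 9.32e-13, higher in 15 of 15 specimens) in study 2 and 1.18 (SE 0.16, adjusted p = 1.11e-07, higher in 5 of 5 specimens) in study 1. Other probe sets of Kif22 did not pass in study 2, at 0.22 (adjusted p = 0.288) and 0.08 (adjusted p = 0.529). In study 1 they gave 1.25 and 0.76, both past the threshold. Kif11, the motor that pushes the spindle poles apart, lay between 5.96 and 8.49 (median 7.52) in captured cells of study 2, against 5.21 to 8.32 (median 6.52) in whole granuloma. Kif11 of study 1 lay between 6.14 and 7.72 (median 7.37) in captured cells, against 6.03 to 7.26 (median 6.70) in whole granuloma. Its ranges overlapped in both, with differences of 0.90 (higher in 13 of 15 specimens) in study 2 and 0.74 (higher in 5 of 5 specimens) in study 1. Kif23, the kinesin of the central spindle, lay between 7.86 and 9.76 (median 8.53) in captured cells of study 2, against 6.88 to 8.46 (median 7.54) in whole granuloma. Kif23 in study 1 lay between 7.30 and 8.92 (median 8.48) in captured cells, against 7.00 to 7.92 (median 7.28) in whole granuloma. Its ranges overlapped, with differences of 1.16 (higher in 15 of 15 specimens) in study 2 and 1.03 (higher in 5 of 5 specimens) in study 1. Other probe sets of Kif23 gave 0.19 (adjusted p = 0.00229) and −0.14 (adjusted p = 0.0596) in study 2. Neither passed in study 1, at −0.02 and −0.11. Hmmr, a spindle-associated receptor of hyaluronan, lay between 7.11 and 10.06 (median 9.45) in captured cells of study 2, against 6.43 to 8.77 (median 7.62) in whole granuloma. Hmmr in study 1 lay between 7.67 and 9.68 (median 9.34) in captured cells, against 7.62 to 9.15 (median 8.48) in whole granuloma. The difference of Hmmr was 1.83 (SE 0.17, adjusted p = 4.99e-12, higher in 14 of 15 specimens) in study 2 and 0.72 (SE 0.25, adjusted p = 0.0116, higher in 5 of 5 specimens) in study 1, with overlapping ranges. Tpx2, an activator of Aurora A on the spindle, lay between 7.37 and 9.84 (median 8.43) in captured cells of study 2, against 5.80 to 8.72 (median 7.62) in whole granuloma. Tpx2 in study 1 lay between 7.18 and 9.19 (median 8.88) in captured cells, against 7.26 to 8.49 (median 8.11) in whole granuloma. Captured and granuloma ranges of Tpx2 overlapped, with differences of 0.81 (higher in 12 of 15 specimens) in study 2 and 0.71 (higher in 4 of 5 specimens) in study 1. Nusap1, which bundles microtubules near chromosomes, lay between 7.14 and 9.58 (median 8.76) in captured cells of study 2, against 6.85 to 8.71 (median 7.63) in whole granuloma. Nusap1 in study 1 lay between 6.18 and 8.46 (median 8.22) in captured cells, against 6.47 to 8.23 (median 7.54) in whole granuloma. Its ranges overlapped in both studies, with differences of 0.97 (higher in 14 of 15 specimens) in study 2 and 0.67 (higher in 4 of 5 specimens) in study 1. The other probe set of Nusap1 gave −0.005 (adjusted p = 0.962) in study 2 and 0.35 (adjusted p = 0.0201) in study 1. Prc1, which bundles the microtubules of the midzone, lay between 7.90 and 9.20 (median 8.62) in captured cells of study 2, against 6.95 to 8.86 (median 8.01) in whole granuloma. Prc1 in study 1 lay between 7.01 and 9.25 (median 8.93) in captured cells, against 7.20 to 8.36 (median 7.92) in whole granuloma. For Prc1 the ranges overlapped in both, with differences of 0.59 (higher in 12 of 15 specimens) in study 2 and 0.90 (higher in 4 of 5 specimens) in study 1. Prc1 was −0.086 in study 2 with the end difference as a covariate, with no call. Kif20a, a kinesin of cytokinesis, was higher in study 1 (0.49) with a value of −0.16 (adjusted p = 0.233) in study 2, and the microtubule-destabilizing Stmn1 did not pass in either (−0.06 and 0.21). The other probe set of Stmn1 gave 0.91 (adjusted p = 1.99e-11) in study 2 and 0.43 (adjusted p = 0.00387) in study 1.

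Centromere genes gave the largest difference of the list. Cenpk and Cenpa were higher in both studies. Cenpe, whose study 2 difference is given with no test, did not pass in study 1. Cenpk, a subunit of the constitutive centromere network, lay between 7.16 and 9.49 (median 8.27) in captured cells of study 2, against 4.20 to 6.43 (median 5.70) in whole granuloma. Not a single captured specimen of study 2 fell into the granuloma range, and the difference of 2.73 (SE 0.16, adjusted p = 8.17e-18, higher in 15 of 15 specimens) corresponded to 6.65-fold. Cenpk in study 1 lay between 6.62 and 8.29 (median 7.89) in captured cells, against 6.28 to 7.04 (median 6.61) in whole granuloma. Study 1 showed overlap for Cenpk and a difference of 1.13 (SE 0.23, adjusted p = 5.39e-05, higher in 5 of 5 specimens). Cenpe, the kinesin that carries chromosomes to the spindle equator, lay between 5.35 and 7.46 (median 6.13) in captured cells of study 2, against 3.61 to 5.38 (median 4.24) in whole granuloma. The overlap was narrow, and the difference was 2.19 (higher in 15 of 15 specimens), with the granuloma values below the array median. Cenpe in study 1 lay between 4.25 and 6.71 (median 6.17) in captured cells, against 5.07 to 6.04 (median 5.61) in whole granuloma. Its difference was 0.40 (SE 0.26, adjusted p = 0.184, higher in 3 of 5 specimens). Cenpa, the histone that marks the centromere, lay between 7.75 and 9.37 (median 8.75) in captured cells of study 2, against 7.27 to 9.07 (median 8.04) in whole granuloma. Cenpa in study 1 lay between 7.66 and 9.21 (median 9.03) in captured cells, against 6.94 to 8.04 (median 7.70) in whole granuloma. Its ranges overlapped in both studies, with differences of 0.58 (higher in 11 of 15 specimens) in study 2 and 1.29 (higher in 5 of 5 specimens) in study 1.

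Members of the passenger complex and cytokinesis were higher in 3 of 3 cases in each study. Birc5, the passenger protein survivin, lay between 5.83 and 8.70 (median 8.46) in captured cells of study 2, against 6.42 to 8.43 (median 7.38) in whole granuloma. Birc5 in study 1 lay between 7.13 and 8.87 (median 8.67) in captured cells, against 5.52 to 7.80 (median 6.91) in whole granuloma. Overlap was seen in both, and the differences were 0.78 (SE 0.18, adjusted p = 0.000242, higher in 13 of 15 specimens) in study 2 and 1.34 (SE 0.26, adjusted p = 2.77e-05, higher in 5 of 5 specimens) in study 1. Racgap1, a subunit of centralspindlin, lay between 5.98 and 8.33 (median 7.95) in captured cells of study 2, against 6.13 to 7.86 (median 6.82) in whole granuloma. Racgap1 in study 1 lay between 6.57 and 8.39 (median 7.68) in captured cells, against 6.07 to 7.40 (median 7.04) in whole granuloma. The differences of Racgap1 were 0.93 (higher in 13 of 15 specimens) in study 2 and 0.77 (higher in 5 of 5 specimens) in study 1. With the end difference as a covariate Birc5 was −0.65 and Racgap1 −0.059 in study 2, with no call. Ect2, the exchange factor that activates RhoA at the cleavage site, lay between 6.44 and 8.99 (median 8.02) in captured cells of study 2, against 6.06 to 8.25 (median 6.92) in whole granuloma. Ect2 in study 1 lay between 5.73 and 8.64 (median 7.80) in captured cells, against 6.31 to 7.26 (median 6.98) in whole granuloma. The differences of Ect2 were 0.99 (higher in 15 of 15 specimens) in study 2 and 0.86 (higher in 4 of 5 specimens) in study 1, with overlap in both as for Racgap1. Genes of mitotic chromosome structure were higher in 4 of 4 cases in study 2 and 2 of 4 in study 1. Top2a, the topoisomerase that untangles sister chromosomes, lay between 6.45 and 10.61 (median 10.13) in captured cells of study 2, against 7.90 to 10.30 (median 8.93) in whole granuloma. Top2a in study 1 lay between 8.98 and 10.67 (median 10.27) in captured cells, against 8.64 to 9.84 (median 9.42) in whole granuloma. Its ranges overlapped, with differences of 0.88 (SE 0.19, adjusted p = 9.01e-05, higher in 14 of 15 specimens) in study 2 and 0.76 (SE 0.27, adjusted p = 0.0142, higher in 5 of 5 specimens) in study 1. That covariate turned Top2a to −0.54 in study 2, with no call. Smc2, a core subunit of condensin, lay between 7.41 and 10.40 (median 9.11) in captured cells of study 2, against 6.90 to 9.81 (median 8.64) in whole granuloma. Smc2 in study 1 lay between 8.58 and 10.15 (median 9.66) in captured cells, against 8.42 to 9.90 (median 9.32) in whole granuloma. Smc2 overlapped in both, with differences of 0.44 (higher in 11 of 15 specimens) in study 2 and 0.59 (higher in 3 of 5 specimens) in study 1. Mki67, which codes for the proliferation antigen Ki-67 of the chromosome surface, lay between 8.67 and 11.97 (median 10.87) in captured cells of study 2, against 8.56 to 10.89 (median 10.03) in whole granuloma. Its difference was 0.96 (SE 0.18, adjusted p = 1.19e-05, higher in 13 of 15 specimens). Mki67 in study 1 lay between 10.41 and 11.89 (median 11.50) in captured cells, against 10.84 to 11.72 (median 11.43) in whole granuloma. Its difference was 0.01 (SE 0.26, adjusted p = 0.975, higher in 3 of 5 specimens). Smc4, the other condensin core subunit, was higher in study 2 (1.03) and gave −0.04 (adjusted p = 0.823) in study 1.

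Whether the tissue difference itself differed between the cohorts was tested as an interaction over the days they share. It was larger in study 2 for 7 members and smaller for 14, against 22.8% and 22% of all genes. S phase members leaned to smaller differences in study 2 (1 larger and 7 smaller of 16), led by Mcm5 at −2.06 (SE 0.31, adjusted p = 9.03e-07), and Ccne2 at 1.95 (SE 0.42, adjusted p = 0.000253) was the exception. Mitotic members split evenly (6 larger and 7 smaller of 32). Larger in study 2 were Cenpe (1.79), Cenpk (1.65), Hmmr (1.21), Mki67 (1.01), Smc4 (0.95) and Bub1 (0.95). The 7 include Cenpe and the 14 include E2f1, whose tissue differences in study 2 and in study 1, respectively, are given with no test. Plk1 at −1.62 (SE 0.30, adjusted p = 2.41e-05), Cdc20 (−1.22) and Aurka (−1.12) were the mitotic members with the most negative values. The split by direction depends on the scale and on the covariate. With the end difference as a covariate 4 were larger and 17 smaller, against 17% and 24.3% of all genes (S phase 1 and 8, mitotic 3 and 9, median −0.48). As deposited 3 were larger and 35 smaller, where 2.66% and 69.8% of all genes were (median of all genes −0.95). Median centring gave 7 larger and 9 smaller, against 30.2% and 18.6% of all genes. The counts were 8 and 8 without day 104, 7 and 15 without the array that stood apart, and 5 and 8 with the specimen number as a fixed block.

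Class means, the average deviation of the 16 S phase or 32 mitotic members tested, summarise each specimen. In study 2 the S phase mean lay between −1.28 and 0.62 (median 0.41) in captured cells, against −0.67 to 0.67 (median −0.18) in whole granuloma. The mitotic mean lay between −0.96 and 0.79 (median 0.34) in captured cells, against −1.06 to 0.47 (median −0.55) in whole granuloma. Both overlapped, and within specimens the captured cells were higher in 11 of 15 for S phase (median 0.38) and in 14 of 15 for mitosis (median 0.78). The gap of the mitotic over the S phase mean was larger in captured cells than in whole granuloma of the same specimen in 15 of 15 specimens, by 0.12 to 0.61 (median 0.44). Without the array that stood apart this was so in 14 of 15 specimens (−0.06 to 0.61, median 0.41), with the S phase mean higher in 12 and the mitotic mean in 15. In the 11 pairs whose titles carry the same letter the gap was then larger in 10 (−0.06 to 0.61, median 0.44), and in the other 4 pairs in 4 (0.24 to 0.46). Study 1 did not show this order, since in 5 specimens with both tissue types the S phase mean was higher in 5 (median 0.78), the mitotic mean in 4 (median 0.80) and the gap was larger in 1 (−0.22 to 0.05). No test was made of these means, because the members were chosen with results of these data known.

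**Figure D2:**
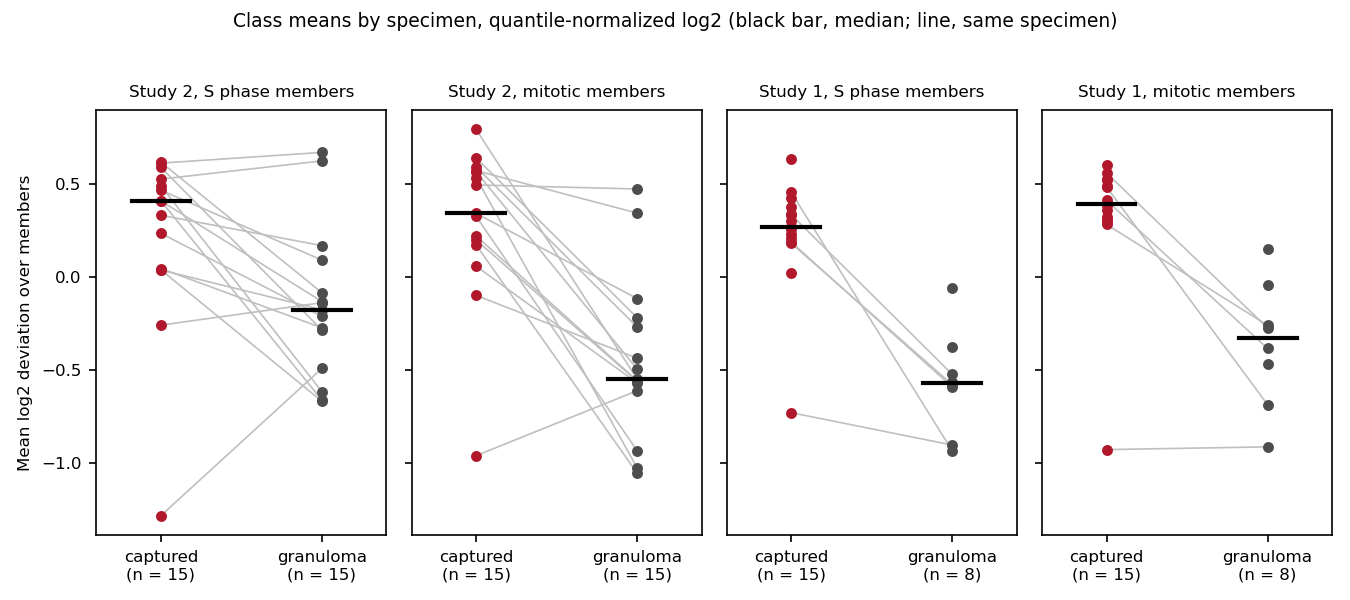
Mean log2 deviation of the S phase or mitotic members in each specimen, quantile-normalized, for captured cells (red, left of each panel) and whole granuloma (grey, right) of study 2 and study 1. Grey lines join the tissue types of a specimen and black bars are medians. In study 2 the mitotic median is 0.34 in captured cells against −0.55 in whole granuloma, and the lowest captured specimen holds the array that stood apart.

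Day by day, the excess in captured cells of study 2 was widest on day 17 and narrowest on day 105. Members higher and lower numbered 15 and 1 on day 7 (19.5% and 20.3% of all genes), 30 and 1 on day 17 (20.2% and 18.9%), 20 and 2 on day 33 (23.9% and 20.6%), 18 and 1 on day 49 (16.7% and 25.1%), and 6 and 4 on day 105 (14.6% and 12.3%). Day 49 had 28 higher and 0 lower (22.4% and 19.2% of all genes) without the array that stood apart. On day 105 the share of higher members was thus near that of all genes. Their median difference was 0.57, 1.05, 0.53, 0.48 and 0.15 on these days in turn. In study 1 the excess was widest on day 7, with 30 higher and 0 lower (19.4% and 19.2%), then 12 and 0 on day 17 (14.8% and 15.1%), 10 and 1 on day 33 (18.4% and 17.1%), and 3 and 0 on day 104, with 1 specimen of each type and the spread of the pooled fit (3.88% and 7.03%).

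Cenpe, widest on day 7, stood there at 7.30, 7.41 and 7.46 in captured cells, against 3.91, 4.24 and 4.47 in whole granuloma, quantile-normalized and in order of value. On day 105 it stood at 5.35, 5.40 and 6.00 in captured cells, against 4.52, 4.65 and 5.38 in whole granuloma. The groups were apart on day 7, with a difference of 3.18, and overlapped on day 105, with 0.73. Ttk on day 17 stood at 7.66, 7.99 and 8.36 in captured cells, against 4.44, 5.73 and 5.86 in whole granuloma, without overlap, and differed by 2.66 (adjusted p = 1.66e-07). On day 105 Ttk stood at 7.29, 7.63 and 8.14 in captured cells, against 6.31, 7.43 and 7.52 in whole granuloma, with overlap, and differed by 0.60 (adjusted p = 0.199). Cenpk, in contrast, was apart on each day, from 7.16, 8.18 and 8.66 in captured cells, against 5.63, 5.94 and 6.33 in whole granuloma on day 7 to 8.27, 8.67 and 9.49 in captured cells, against 5.36, 6.30 and 6.43 in whole granuloma on day 105. Its differences were 2.03 (adjusted p = 2.38e-05) on day 7, 3.58 (adjusted p = 8e-10) on day 33 and 2.78 (adjusted p = 4.41e-07) on day 105. Mcm5 was lower in captured cells on day 7 at −1.84 (adjusted p = 0.000172) and on day 105 at −1.76 (adjusted p = 0.000618).

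**Figure D3:**
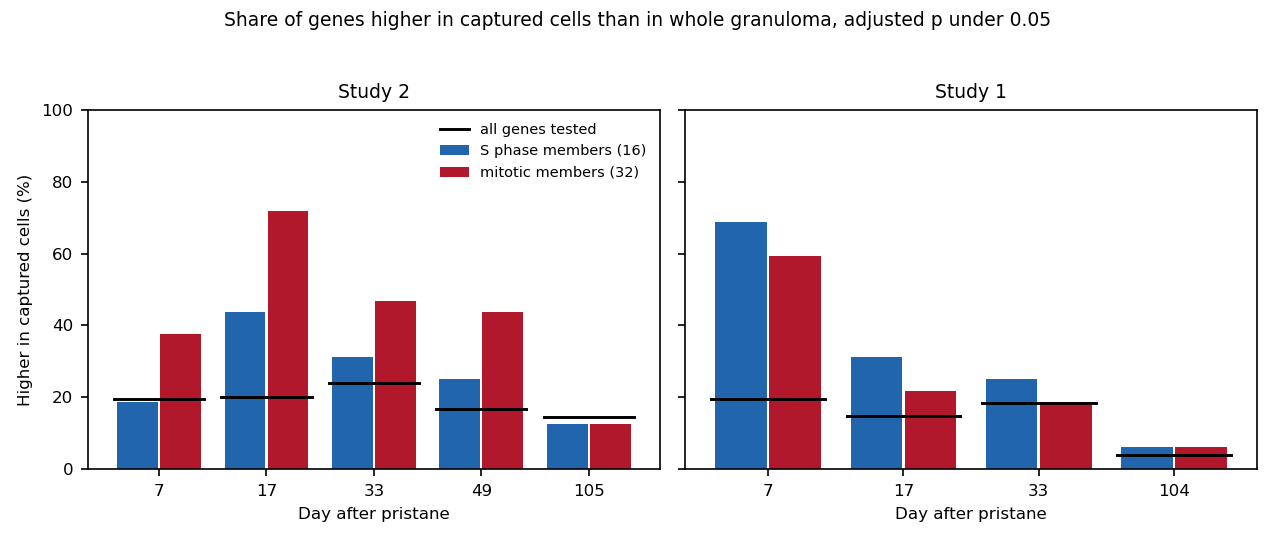
Share of S phase (blue) and mitotic (red) members that were higher in captured cells than in whole granuloma at an adjusted p under 0.05, by day after pristane, with black lines for the share of all 8593 genes. In study 2 the count falls to 6 of 48 members on day 105, where the line stands at 14.6%, and in study 1 it falls to 3 of 48 on day 104, where 1 specimen of each type was measured.

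Changes over the days were then examined within each tissue type, on the values as deposited, with a moderated F test over the days. In captured cells of study 2, 8 members differed between days, Rrm2, Pcna, Kif11, Kif23, Cenpe, Ect2, Top2a and Smc2, against 15.2% of all genes. Without the array that stood apart 3 of them passed, Kif11, Kif23 and Cenpe (15.4% of all genes). In whole granuloma of study 2, 11 members differed, against 24.4% of all genes, namely Cdc6, Cdc45, E2f1, Plk1, Aurkb, Bub1, Ttk, Kif11, Kif20a, Ect2 and Smc2. That share is near the one of all genes, and the count was 22 without the array that stood apart (35.8% of all genes) and 20 after quantile normalization (25.5%). In study 1, limma called 0 members in captured cells (0.594% of all genes, 6 members at an unadjusted p under 0.05) and 0 in whole granuloma (0.0349%, 2 members at an unadjusted p under 0.05). With the period of the date in the array title as a block, 2 members passed in captured cells of study 1, Tk1 (adjusted p = 0.0258) and Ttk (adjusted p = 0.0208), against 11.1% of all genes.

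Cenpe fell over time in captured cells of study 2, with 7.15, 7.09 and 7.06 on day 7, 6.46, 6.81 and 7.12 on day 17, 5.39, 5.85 and 5.60 on day 33, 5.37, 6.26 and 5.38 on day 49, and 5.03, 5.07 and 5.66 on day 105. All 3 specimens of day 7 lay above those of days 33, 49 and 105. Day 105 minus day 7 was −1.85 (SE 0.42, adjusted p = 0.00454), and the F test over days gave an adjusted p of 0.00491. In whole granuloma Cenpe stood at 5.50, 5.82 and 5.06 on day 7, 5.70, 5.43 and 4.64 on day 17, 5.57, 5.32 and 5.15 on day 33, 4.89, 5.55 and 5.21 on day 49, and 6.09, 6.85 and 5.97 on day 105, so that the late specimens were the high ones there, all below the array median. The days by tissue interaction of Cenpe had an adjusted p of 0.00965. Its granuloma side rests on values below the array median, so no conclusion is drawn from it. In study 1 the captured cells held 5.51, 6.04, 5.65 and 5.01 on day 7 and 5.59 on day 104, where the day 104 specimen lay within the range of day 7.

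Kif11 was the other member with an interaction (adjusted p = 0.0321), these 2 of 48 standing against 7.37% of all genes, and without the array that stood apart 5 passed, with Cdc45, Ttk and Kif23 added. Both counts include Cenpe, whose granuloma values lay below the array median. In captured cells Kif11 stood at 6.72, 7.60 and 7.66 on day 7, 7.66, 8.25 and 7.75 on day 17, 6.78, 6.62 and 7.24 on day 33, 7.01, 5.98 and 6.46 on day 49, and 7.32, 7.43 and 8.37 on day 105. The 3 specimens of day 17 were among the higher ones and the lowest was on day 49, in the specimen that holds the array that stood apart. In whole granuloma it stood at 7.82, 8.17 and 8.00 on day 7, 8.14, 7.67 and 7.05 on day 17, 8.27, 8.11 and 8.24 on day 33, 6.78, 7.65 and 7.57 on day 49, and 8.79, 9.54 and 9.69 on day 105. There day 105 lay above every other specimen. Kif23 in captured cells stood at 8.08, 9.12 and 8.72 on day 7, 8.82, 9.84 and 9.25 on day 17, 8.13, 8.09 and 8.64 on day 33, 8.45, 7.08 and 8.10 on day 49, and 8.00, 7.94 and 8.87 on day 105, high on day 17, and its F test over days had an adjusted p of 0.0127.

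Day 105 against day 7 in captured cells of study 2 moved 2 members up, Ect2 and Smc2 (4.45% of all genes higher), and 1 down, Cenpe (2.37% lower). Ect2 stood at 8.41, 8.83 and 8.53 on day 105, against 6.52, 7.56 and 8.00 on day 7, without overlap, a difference of 1.23 (SE 0.38, adjusted p = 0.0425). Smc2 stood at 9.10, 9.50 and 10.42 on day 105, against 7.10, 9.07 and 8.99 on day 7, without overlap, a difference of 1.29 (SE 0.41, adjusted p = 0.0449). Both lost their call with quantile normalization and with the end difference as a covariate, where Cenpe kept its own. Day 49 against day 7 in captured cells gave 0 calls by limma (0.465% of all genes higher, 1.34% lower, 18 members at an unadjusted p under 0.05), and quantile normalization gave 3. Day 46 against day 7 in captured cells of study 1 gave 0 calls as well (0.116% and 0.0233%, 2 members at an unadjusted p under 0.05), with a median difference of −0.09. In whole granuloma of study 2, day 105 exceeded day 7 for 3 members, Cdc6, E2f1 and Kif11, and was lower for 0 (6.05% of all genes higher, 12.9% lower). Cdc6 was higher by 1.58 (SE 0.45, adjusted p = 0.0113), E2f1 by 1.17 (SE 0.20, adjusted p = 6.8e-05) and Kif11 by 1.34 (SE 0.34, adjusted p = 0.00393). E2f1 stood at 7.74, 8.77 and 8.09 on day 105, against 7.04, 6.98 and 7.06 on day 7, without overlap.

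Day 49 was the low point and day 105 the high point of whole granuloma in study 2, and the contrast of these days was chosen after the values had been seen, so its values are a description with no test. The S phase mean was 0.14 ± 0.09, −0.22 ± 0.20, −0.09 ± 0.19, −0.40 ± 0.08 and 0.56 ± 0.21 on days 7, 17, 33, 49 and 105 (SD, n = 3 each), and the mitotic mean 0.17 ± 0.11, −0.25 ± 0.29, −0.17 ± 0.12, −0.38 ± 0.20 and 0.62 ± 0.28. S phase and mitotic members moved together across these days. Day 105 exceeded day 49 at the threshold for 19 members (6 of S phase and 13 mitotic) and was lower for 0, against 8.02% of all genes higher and 14.3% lower, and 47 of 48 differences were positive (median 0.92, all genes −0.02). In 36 members, 14 of S phase and 22 mitotic, each day 105 specimen lay above each day 49 specimen (14.4% of all genes). These counts restate the values that led to the choice. The count of 19 was 6 without specimen 2 of day 105, 36 without specimen 2 of day 49, 32 without the array that stood apart and 30 after quantile normalization.

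Kif11 stood at 8.79, 9.54 and 9.69 on day 105, against 6.78, 7.65 and 7.57 on day 49, a difference of 2.01. Cdc6, which loads the helicase at origins, stood at 10.61, 11.78 and 11.05 on day 105, against 8.63, 9.25 and 9.65 on day 49, a difference of 1.97. Aurkb stood at 9.86, 10.69 and 10.95 on day 105, against 8.68, 8.90 and 9.10 on day 49, a difference of 1.61. None of these 3 genes overlapped between the days, and each of their specimens of day 105 was the higher one. Smc2 stood at 10.60, 11.20 and 10.63 on day 105, against 8.47, 9.51 and 9.67 on day 49, also apart, a difference of 1.60. The other S phase members past the threshold were Mcm5 (1.45), Rrm2 (1.44), Mcm6 (1.31), Cdc45 (1.17) and E2f1 (0.80). The other mitotic members past the threshold were Bub1 (1.50), Ect2 (1.42), Ttk (1.39), Plk1 (1.34), Top2a (1.29), Nusap1 (1.18), Kif20a (1.17), Bub1b (1.16), Aurka (1.08) and Foxm1 (0.48).

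Markers of other cells moved with this contrast. Between day 105 and day 49 of whole granuloma, 4 of 8 macrophage markers were lower (median −1.29), 4 of 4 mesothelial markers were lower (median −1.80), 1 of 4 smooth muscle markers was lower (median −1.85) and 1 of 4 B cell markers was lower (median −1.29), while 2 of 9 plasma cell markers were higher (median 0.63). Of all genes 8.02% were higher and 14.3% lower. These are a description too, and the part of the markers in the member values was not tested. In captured cells the same contrast gave 8 higher and 0 lower members, against 8.18% and 1.65% of all genes, Rrm2, Top2a, Stmn1, Smc2, Pcna, Ect2, Mcm2 and Kif11, and 0 by limma without the array that stood apart (8 at an unadjusted p under 0.05). Rrm2 stood at 11.16, 11.69 and 11.49 on day 105, against 11.11, 7.63 and 10.45 on day 49, where the second value of day 49 is the average that holds that array. Top2a stood at 9.95, 10.51 and 10.32 on day 105, against 9.92, 6.69 and 9.43 on day 49, and Stmn1 at 11.88, 11.89 and 11.91 on day 105, against 11.52, 8.28 and 11.34 on day 49. The differences of Rrm2, Top2a and Stmn1 were 1.72, 1.58 and 1.51, and 0.65, 0.70 and 0.48 without it.

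**Figure D4:**
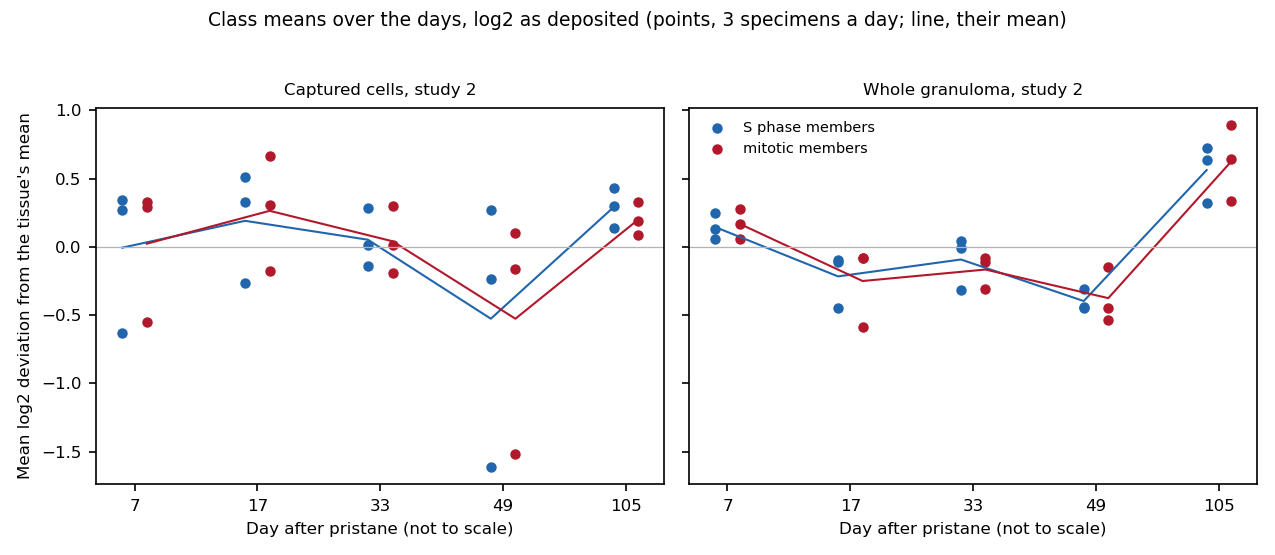
Mean log2 deviation of S phase (blue) and mitotic (red) members from their mean in the tissue type, as deposited, over the days of study 2, for captured cells (left) and whole granuloma (right). Points are specimens and lines join their means, with days not to scale. In whole granuloma the 3 specimens of day 105 average 0.56 for S phase and 0.62 for mitosis, and in captured cells the lowest specimen of day 49 holds the array that stood apart.

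**Figure D5:**
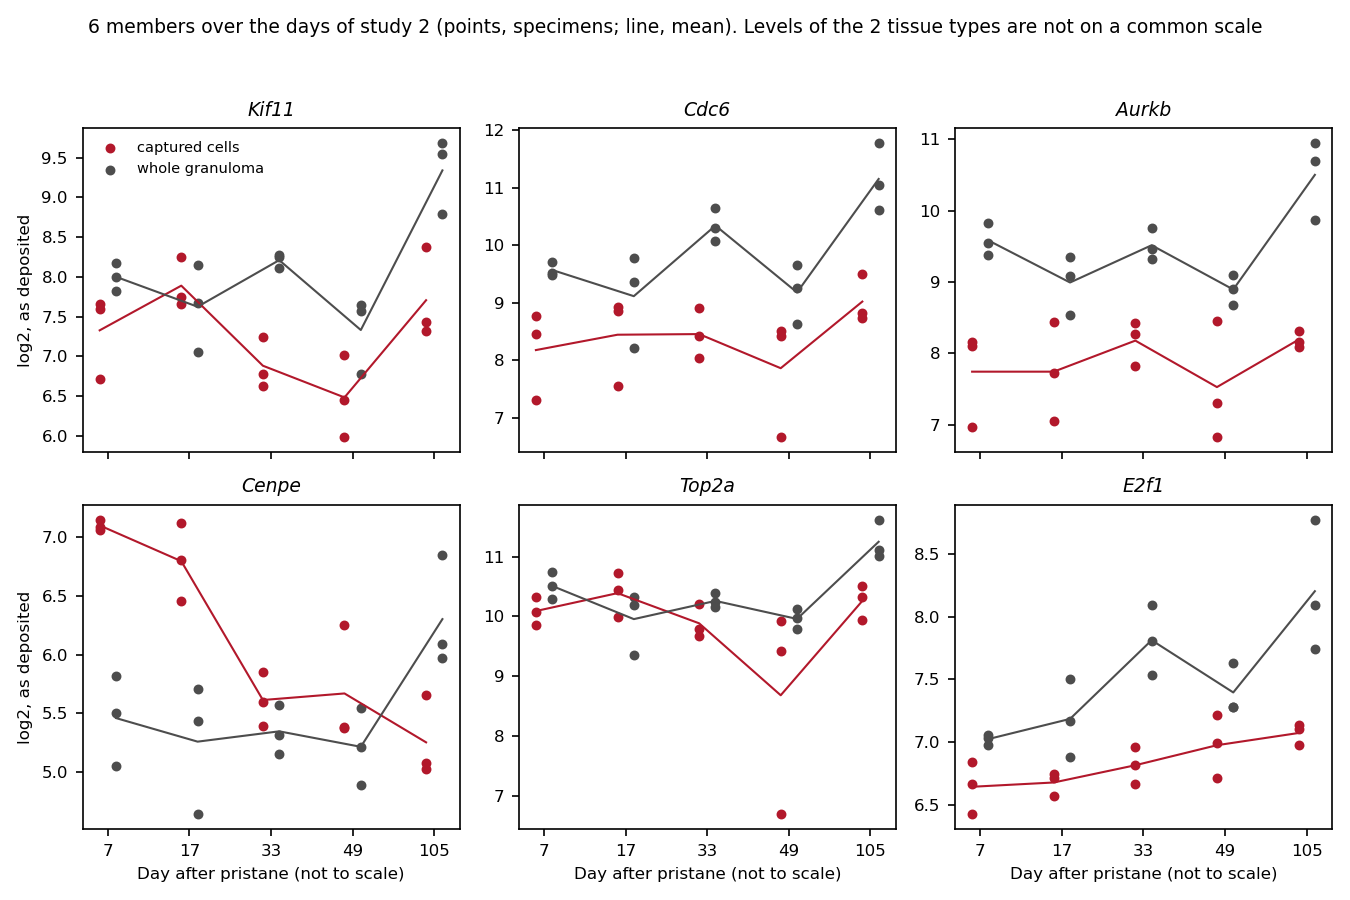
Log2 values as deposited of Kif11, Cdc6, Aurkb, Cenpe, Top2a and E2f1 in captured cells (red) and whole granuloma (grey) over the days of study 2. Points are specimens and lines join their means, with days not to scale, and the levels of the tissue types are not on a common scale. Kif11 and Cdc6 in granuloma are highest on day 105, and Cenpe in captured cells is highest on day 7.

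Other genes of the same pathways were followed as lists. Their tissue counts stand against 34.4% of all genes higher and 35.4% lower in study 2. In study 1 these shares were 31.5% and 29%. Of 30 other replication genes tested, 24 were higher and 3 lower in captured cells of study 2 (median 0.81), and 26 higher and 1 lower in study 1 (median 0.68). The largest in study 2 were Rpa3, a subunit of the single-strand binding protein RPA (1.91), the origin recognition subunit Orc6 (1.87), the primase subunit Prim2 (1.60) and the fork protection factor Tipin (1.42). Study 1 was led by the maintenance methyltransferase Dnmt1 (1.71), its recruiter Uhrf1 (1.51), the replication initiator Mcm10 (1.50) and the RPA subunit Rpa2 (1.27). Of 33 other mitotic genes tested, 24 were higher and 1 lower in study 2 (median 0.89), and 25 higher and 0 lower in study 1 (median 0.94). These were led in study 2 by the condensin subunit Ncapg (2.30), the kinesin Kif18a (1.88) and the kinetochore genes Ndc80 (1.86) and Cenpf (1.69). Those of study 1 were the kinetochore genes Zwilch (1.55) and Spc25 (1.50), the kinase subunit Cks2 (1.47) and Ndc80 (1.45). Without the array that stood apart the replication genes of study 2 were 24 higher and 2 lower, and the mitotic genes 26 and 2.

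Repressors of the cell cycle, 14 tested, went both ways, with 3 higher and 6 lower in study 2 (median −0.14, and 5 and 6 without the array that stood apart) and 4 higher and 4 lower in study 1 (median 0.14). The study 1 counts were near the shares of all genes, 31.5% higher and 29% lower. Study 2 had 34.4% of all genes higher and 35.4% lower. Lin9, a subunit shared by DREAM and the B-Myb complex, was higher in study 2 (2.16) and in study 1 (0.98). Rb1, the retinoblastoma protein that restrains E2F, was higher in study 2 (1.04), where the CDK inhibitor Cdkn2c (−1.19) and the antiproliferative Btg2 (−1.08) were lower. Study 1 had the CDK inhibitor Cdkn1c lower (−1.67), while Tob1 (0.88) and the CDK inhibitor Cdkn1b (0.88) were higher. In whole granuloma of study 2 between day 105 and day 49, again as a description, 8 of 30 replication genes and 17 of 33 mitotic genes were higher and 0 lower. Of all genes 8.02% were higher and 14.3% lower there. Uhrf1 (1.61), Mcm10 (1.28), the primase subunit Prim1 (1.20) and the chromatin assembly subunit Chaf1b (1.11) were the largest of the first list. The phosphatase Cdc25c (1.62), the kinetochore genes Nuf2 (1.60) and Zwilch (1.60) and Cenpf (1.53) were the largest of the second. Of the repressors Btg2 (1.05) and Lin9 (0.69) were higher and the antiproliferative Btg1 was lower (−1.05) on day 105.

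The order of mitotic members with and without TTTGAA in a promoter window was not the same in each comparison. The 19 tested mitotic members with TTTGAA in a promoter window had a median difference of 0.71 between captured cells and whole granuloma of study 2 (−0.85 to 1.83), against 1.12 (0.66 to 2.73) in 6 with a window and no such match. Medians in study 1 were 0.76 with the match and 0.61 without it. Between day 105 and day 49 of whole granuloma they were 0.93 with the match and 1.11 without it. These values are a description of few members and were not tested. The 6 without a match include Cenpe, whose study 2 difference is given with no test.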

How the data were processed

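One deposited table held log2 values of 22690 probe sets for 82 Affymetrix arrays, deposited by the authors after robust multi-array averaging (RMA) in the Partek software, both named in the submitters' processing notes with no version. The sections were amplified by 2 rounds of linear amplification, per the labels' protocols. Of the probe sets, 20393 had 1 gene symbol, 691 several and 1606 none, 20364 symbols were updated by gene identifier, and no gene was named from a probe set with several.

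Arrays of a specimen and tissue type were averaged to 53 values a gene, of 33 specimen numbers in 19 groups, 20 of them with both tissue types. Genes above the array median in at least 3 averages were kept (8593). limma 3.58.1 in R 4.3.3 fitted a mean for each group, with the specimen number in the titles as a random block (correlation 0.1116 after quantile normalization and 0.1214 as deposited, 34 residual degrees of freedom), so that tissue differences weight days equally and need not match differences of medians. The pairing comes from the specimen numbers in the titles, with the letter beside them dropped; it differs in 4 of 15 pairs of study 2. P-values were adjusted by Benjamini-Hochberg over all genes with a threshold of 0.05. Groups were taken from the sample labels. The fits were tested on simulated data.

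Members and lists were chosen with earlier results of these data known. Genes described in full are a fixed set of proliferation genes, members past the threshold in both studies and the 4 largest in each comparison. Other probe sets are given for some members only. Other settings tried were the deposited scale, median centring, the end difference as a covariate, other filters and probe set rules, a fixed or no block, and leaving out specimens, days or 1 array.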

Additional observations from a re-analysis of the deposited data

Results flagged for a closer look

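Within the 6 captured arrays of a day of study 2, 1 array lay far below the others in its class means on 3 days, after 40 tests of this kind, of which chance flags about 1 in 20. On day 7 it was an array of specimen 1, at −1.02 for S phase and −0.90 for mitosis. On day 49 it was the array that stood apart, of specimen 2, at −2.59 and −1.81. On day 105 it was an array of specimen 1, at 0.14 and −0.014. On day 33 an array of specimen 2 was the lowest, at −0.32 and −0.53, with a gap that did not pass the test used. In captured cells of study 1, Birc5 stood at 7.59 in specimen 003 of day 7 and Cdk1 at 8.54 in specimen 4 of day 17, each apart from the other specimens of its day.

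The tissue difference of study 2 minus that of study 1 passed the interaction test for 21 members. It was positive for Ccne2 (1.95), Bub1 (0.95), Hmmr (1.21), Cenpe (1.79), Cenpk (1.65), Mki67 (1.01) and Smc4 (0.95). It was negative for Rrm1 (−0.79), Tk1 (−1.19), Mcm3 (−1.001), Mcm5 (−2.06), Cdc6 (−0.98), Pcna (−0.98), E2f1 (−0.54), Plk1 (−1.62), Aurka (−1.12), Foxm1 (−0.41), Cdc20 (−1.22), Ube2c (−0.74), Kif20a (−0.71) and Cenpa (−0.70). Cenpe in study 2 and E2f1 in study 1 lay below the array median in every whole granuloma average, so their tissue differences there are given with no test. The split by direction of the 21 members depends on the scale. The effect of days differed between captured cells and whole granuloma of study 2 for Kif11 (limma adjusted p = 0.0321) and Cenpe (limma adjusted p = 0.00965). For Cenpe the granuloma side rests on values below the array median, so no conclusion is drawn from its test.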

How the results depend on the processing

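The 30 higher and 5 lower members of captured cells in study 2 became 29 and 5 with the specimen as a fixed block, 37 and 3 with median centring and 29 and 4 without day 49. With centring, 3926 of all 8593 genes were higher and 2326 lower in study 2, against 2959 and 3039 in the main fit. For study 1 centring gave 3112 and 2301, against 2706 and 2491. The 32 calls of study 1 became 23 with a fixed block, 36 with centring, 15 as deposited and 16 with the covariate, and the 35 of study 2 became 22 with the covariate. Of all genes, 5413 passed in study 1 with centring, 5836 as deposited and 4148 with the covariate, while 3452 passed in study 2 with the covariate. As deposited, where all genes shift, these differences in study 2 turned negative: Mcm2 (−0.36), Mcm4 (−0.71), Ccne1 (−0.78), E2f1 (−0.68), Ccnb2 (−0.95), Cdk1 (−1.11), Foxm1 (−1.45), Bub1 (−0.39), Mad2l1 (−0.75), Ttk (−0.17), Ube2c (−1.02), Kif11 (−0.84), Kif22 (−0.25), Kif23 (−0.52), Tpx2 (−0.96), Nusap1 (−0.72), Prc1 (−1.06), Cenpa (−1.05), Birc5 (−0.86), Racgap1 (−0.79), Ect2 (−0.70), Mki67 (−0.33), Top2a (−0.53), Smc2 (−1.10) and Smc4 (−0.50). With the end difference as covariate they were negative for Mcm2 (−0.49), Mcm4 (−0.38), Ccnb2 (−0.46), Cdk1 (−0.59), Mad2l1 (−0.10), Prc1 (−0.086), Birc5 (−0.65), Racgap1 (−0.059) and Top2a (−0.54). Centring gave Pcna (0.12) in study 2. In study 1 the deposited scale turned Rrm1 (−0.11), Tk1 (−0.0030), Plk1 (−0.068), Foxm1 (−0.020), Kif11 (−0.079), Kif20a (−0.23), Nusap1 (−0.096) and Racgap1 (−0.029), and averaging probe sets turned Rrm1 (−0.28). The 21 differences between studies (7 larger and 14 smaller in study 2) became 38 as deposited (3 and 35) and 13 with the fixed replicate block (5 and 8), and split 4 and 17 with the covariate, 7 and 9 with centring and 8 and 8 without day 104.

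Day counts were less stable. The 8 members of captured cells in study 2 became 3 with averaged probe sets and 3 without the array that stood apart, and the 11 of whole granuloma became 20 with quantile normalization, 21 with averaged probe sets and 22 without that array. The 0 of captured cells in study 1 became 2 with the title date as a block. Day 105 against day 7 in captured cells (3) gave 1 with quantile normalization, 1 with the covariate and 1 without a filter, and in whole granuloma (3) gave 5 with centring, 5 with quantile normalization and 5 without that array. Day 49 against day 7 (0) gave 1 with centring, 3 with quantile normalization and 1 without that array. The days by tissue count (2) was 1 with no replicate block and 5 without that array. Day 105 against day 49 gave 30 with quantile normalization and 32 without that array in whole granuloma (19), and in captured cells (8) gave 5 with averaged probe sets and 0 without it.

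Leaving out 1 specimen at a time gave 34 to 38 calls for the tissue difference in study 2, 29 to 34 in study 1 and 18 to 22 for their difference. Days of captured cells ranged from 2 (without specimen 2 of day 17) to 25 (without specimen 1 of day 49) in study 2 and from 0 to 1 in study 1, and days of whole granuloma from 5 (without specimen 2 of day 105) to 24 (without specimen 2 of day 49) in study 2 and from 0 to 0 in study 1. The range was 1 to 4 for day 105 against day 7 in captured cells and 2 to 6 in whole granuloma, 0 to 17 for day 49 against day 7 in study 2 (17 without specimen 1 of day 49), 0 to 0 for day 46 against day 7 in study 1, and 0 (without specimen 2 of day 105) to 9 (without specimen 1 of day 49) for days by tissue. Day 105 against day 49 ranged from 6 (without specimen 2 of day 105) to 36 (without specimen 2 of day 49) in whole granuloma and from 0 (without specimen 2 of day 49) to 25 (without specimen 1 of day 49) in captured cells. The cause of these changes was not tested. With 3 specimens a day, differences between days are measured coarsely, and low signals limit members such as Tyms and Cenph, which could not be tested.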
